A study of Mus musculus with 16 samples.

Results

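*Chrna6* and *Chrnb3* encode the α6 and β3 subunits of nicotinic acetylcholine receptors and are neighbours on mouse chromosome 8. They were followed in pituitary RNA as 2 of the 17362 genes listed, and both were among the 14345 genes that passed the filter on low values, a mean of at least 1 over all mice. The pair was selected on measured values. Both genes were among the 5 largest decreases in mutants against controls on standard diet (SD) in these same libraries, so for these genes the SD comparison, and the diet comparisons that share its mice, are described with no test. The ranking behind that choice used none of the 8 mice on high-fat diet (HFD), apart from the spread that the fit shares over all mice. The HFD mice give the only test on the pair. Earlier results of these data were known when the pair was taken, so independence of that test from the choice is not shown.

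The pituitary was profiled by bulk RNA sequencing in 16 females aged 27 weeks, 4 in each of 4 groups, and each mouse gave 1 library. Controls were Esr1fl/fl mice, which carry floxed alleles of *Esr1*, the gene for oestrogen receptor alpha. Mutants were Esr1Nkx2-1Cre mice, in which a Cre recombinase driven by *Nkx2-1* deletes these alleles wherever *Nkx2-1* is or has been active, so other pituitary cells keep the gene. The colony was kept on a mixed CD-1;129P2 background. Each genotype was fed SD, which the labels call chow, or HFD for 17 weeks. Mice are numbered 1 to 4 within each group, and a number pairs no mice between groups. Each gene has a normalized signal that is scaled for transcript length and library, so levels can be compared between genes. Standard deviations are written as s.d. to keep them apart from the diet.

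Nicotinic receptors are cation channels that open when acetylcholine binds at the interface of neighbouring subunits. The principal face of each binding site comes from an α subunit with a pair of adjacent cysteines in a loop over the site, and β3, like α5, is an accessory subunit that joins receptors formed by others. α6 assembles with β2 and often with β3 in dopamine neurons and in the retina, where these receptors control transmitter release.

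The coding sequence shows where the subunits part. The stretches below run from conserved glutamate and tryptophan codons to a conserved tyrosine, serine and phenylalanine run, and are printed to show the loop that makes α6, and not β3, the principal side of an acetylcholine site. They come from the GENCODE M21 transcripts on GRCm38, are read 5′ to 3′ along the coding strand, and capitals mark the cysteine pair. In *Chrna6* the stretch is 90 bases of exon 5 of 6 at chr8:27407146-27407235 on the minus strand. In *Chrnb3* it is 84 bases of exon 5 of 6 at chr8:27393852-27393935 on the plus strand.
Chrna6: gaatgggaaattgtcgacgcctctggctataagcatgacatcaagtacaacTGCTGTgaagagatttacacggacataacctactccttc
Chrnb3: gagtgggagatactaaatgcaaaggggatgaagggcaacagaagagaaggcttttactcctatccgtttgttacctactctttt
The *Chrnb3* stretch was 2 codons shorter and held no cysteine codon pair, and the *Chrna6* pair began at codon 222 of 494. Of the 13 subunit genes with a value, 7 had a longest coding sequence with a tyrosine codon followed, after 1 codon, by such a pair, and these were α subunits, *Chrna6* among them. *Chrna5* and the β and δ subunits made up the other 6. Over the whole coding sequence, 860 of 1347 aligned bases, 63.8%, were identical between *Chrna6* and *Chrnb3*, and no transcript of either matched the other at 90% identity over 100 bp.

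*Chrnb3* (ENSMUSG00000031492) spans chr8:27368711-27399730 on the plus strand and has 3 annotated transcripts. *Chrna6* (ENSMUSG00000031491) spans chr8:27403212-27413944 on the minus strand and has 1. The genes point towards each other, their ends are 3481 bp apart and they do not overlap, so neither is antisense to the other. *Chrna6* shared no stretch of at least 100 bp at 90% identity with another gene. A *Chrnb3* transcript of 3241 nucleotides shared such a stretch, between its bases 2126 and 2253 and outside its coding sequence, with 70 other genes, so some of its signal could be assigned between genes.

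*Esr1*, the deleted gene, was read first. It was 40.5, 46.7, 39.4 and 29.0 in controls 1 to 4 on SD and 10.0, 22.2, 20.5 and 21.8 in mutants 1 to 4 on SD. On HFD it was 23.6, 43.4, 42.7 and 39.6 in controls and 33.4, 27.9, 33.0 and 21.5 in mutants. The genotypes were separate on SD and overlapped on HFD, where control 1 lay below 3 of the 4 mutants. The log2 difference, mutant minus control, was -1.09 on SD, with an adjusted p of 0.0409 in limma, and -0.34 on HFD, with an adjusted p of 0.696.

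*Chrna6* was high in most controls and low in every mutant. It was 3.30, 48.6, 44.3 and 26.8 in controls 1 to 4 on SD, and 2.01, 1.02, 0.898 and 1.87 in mutants 1 to 4 on SD. On HFD it was 6.48, 49.8, 17.1 and 1.29 in controls 1 to 4, and 0.925, 0.881, 1.89 and 1.57 in mutants 1 to 4. Control 1 on SD and control 1 on HFD stood well below the other high controls, and control 4 on HFD lay among the mutants. The controls spread over 14.7-fold on SD and 38.7-fold on HFD, against 2.24-fold and 2.15-fold in the mutants.

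*Chrnb3* followed the same mice. It was 4.36, 28.4, 29.1 and 29.4 in controls 1 to 4 on SD, and 1.18, 2.06, 1.29 and 2.14 in mutants 1 to 4 on SD. On HFD it was 5.51, 32.1, 20.2 and 1.55 in controls 1 to 4, and 0.818, 0.907, 1.79 and 1.40 in mutants 1 to 4. As for *Chrna6*, the groups were separate on SD and overlapped on HFD through control 4 alone. In pituitary bulk RNA, fewer cells of a type and less RNA per cell cannot be told apart.

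**Figure D1:**
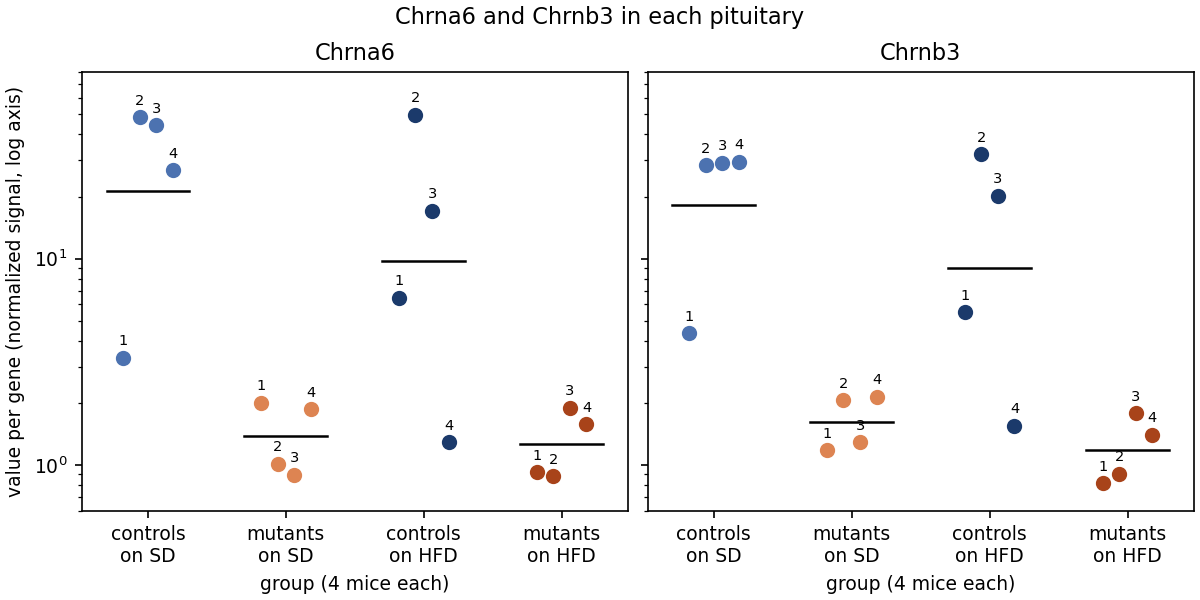
Values of *Chrna6* and *Chrnb3* in each mouse (log axis, normalized signal), by group. Points are mice with their number in the group, and bars are the group means of log2(value + 0.5) turned back to the scale of the values. All 8 mutants lie near 1 to 2 for both genes, while the controls range from 1.29 to 49.8 for *Chrna6*.

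The order of the group means was the same for both genes. *Chrna6* averaged 30.8 ± 20.6 (s.d., n = 4) in controls on SD, 18.7 ± 21.8 in controls on HFD, 1.45 ± 0.570 in mutants on SD and 1.32 ± 0.496 in mutants on HFD. *Chrnb3* averaged 22.8 ± 12.3, 14.8 ± 14.01, 1.67 ± 0.502 and 1.23 ± 0.452 in the same order. On the log2(value + 0.5) scale the control groups lay 1.09 apart for *Chrna6* and 0.98 for *Chrnb3*, within their s.d. of up to 2.04 and 1.80. The mutant groups lay 0.09 and 0.33 apart, also within their s.d. of up to 0.43 and 0.37. Controls on HFD lay 2.44 and 2.17 above mutants on SD, more than the larger s.d. of 2.04 and 1.80, but the mice of these groups overlapped.

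The reads behind the low *Chrna6* values could be estimated. The worth of 1 read and a fragment length were fitted per library in protein-coding genes with 1 transcript. The fit sought low values near whole multiples of 1 read, and 82.2% to 91.5% of them per library lay within 0.1 of a read. As the fit sought a large share, this share is no check on the estimate. On that estimate 3 reads of *Chrna6* were worth 0.0521 to 0.0774 units, and the mutants held about 40 to 109 *Chrna6* reads each. Control 4 on HFD held about 50 and the other controls about 157 to 2414. These are estimates that cover counting error only, and *Chrnb3*, with several transcripts, allows no such estimate.

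The comparison that chose the pair is given as a description. On SD the log2 difference between mutants and controls was -3.54 ± 0.85 (SE) for *Chrna6* and -3.15 ± 0.71 for *Chrnb3*, and all 4 controls lay above all 4 mutants for each. These are 11.6-fold and 8.85-fold lower levels on the log2(value + 0.5) scale, and the plain means were 21.3 times and 13.7 times higher in controls. With each mouse left out in turn the log2 differences ran from -4.38 to -3.15 for *Chrna6* and from -3.80 to -2.92 for *Chrnb3*. Both were largest without control 1 on SD. Among all genes tested, 264, or 1.84%, had an adjusted p under 0.05 in this comparison, 196 higher and 68 lower in mutants, and 4.5% had every mutant below every control. Of the 66 genes that were lower at that threshold with no overlap, *Chrna6* ranked 1 and *Chrnb3* ranked 3 by size. The last inside the rule was *Klhl1*, at -2.77, and the first outside it was *Hapln1*, at -2.42. Ranks 2 and 4 were *Gm14472* and *Gm13502*, which were not taken as members. On HFD these differed by only -0.005 ± 0.58 (SE) and -0.29 ± 0.40, *Klhl1* by -1.79 ± 0.59 and *Hapln1* by -1.685 ± 0.40. A lower level on HFD too was thus not particular to the pair. The count of genes rests on single mice: it was 826 without control 1 on SD, 777 without control 4 on HFD, and as low as 33 without mutant 3 on SD.

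The test on the pair was mutant against control on HFD, which asks whether the difference is also seen in mice that the ranking on SD did not use. *Chrna6* differed by -2.54 ± 0.85 (SE), with a confidence interval at the 0.05 level of -4.34 to -0.73, and limma gave an unadjusted p of 0.00900 and an adjusted p of 0.321. *Chrnb3* differed by -2.50 ± 0.71 with an interval of -4.01 to -0.99, and limma gave an unadjusted p of 0.00295 and an adjusted p of 0.255. These are 5.80-fold and 5.66-fold lower levels on the log2(value + 0.5) scale, which understates the change of low values, and the plain means were 14.2 times and 12.1 times higher in controls. Two-sided exact permutation tests of the 4 against 4 log2 values gave p = 0.0857 for *Chrna6* and p = 0.0571 for *Chrnb3*, where the smallest p this design allows is 0.0286. Adjusted over all genes tested, neither gene passed the threshold, and 3 of 4 controls lay above all 4 mutants for each. With limma, 0 of the 14345 genes, 0%, passed in this comparison, and 1461 had an unadjusted p under 0.05. In 336 genes, 2.34%, every mutant lay below every control, and neither *Chrna6* nor *Chrnb3* was among them.

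That test turned on control 4 on HFD, whose group comes from its label alone. Its genotype and dissection were not checked by other means, and the values given below set it apart from the other controls. Without this library *Chrna6* differed by -3.38 ± 0.75, with an adjusted p of 0.0179 in limma, and *Chrnb3* by -3.24 ± 0.61, with an adjusted p of 0.00601. Then 653 genes, 4.55% of those tested, passed the threshold. Over all alternatives the adjusted p ran from 0.0179 to 0.769 for *Chrna6* and from 0.00601 to 0.698 for *Chrnb3*. The exact permutation test of 4 against 3 mice gave p = 0.0571 for each gene, the smallest it can give. As the library left out was the only control to overlap the mutants, this p was fixed by leaving it out and is no further evidence, and the limma values without it carry the same choice. Without control 2 on HFD, the highest control, the differences were -1.77 and -1.91.

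**Figure D2:**
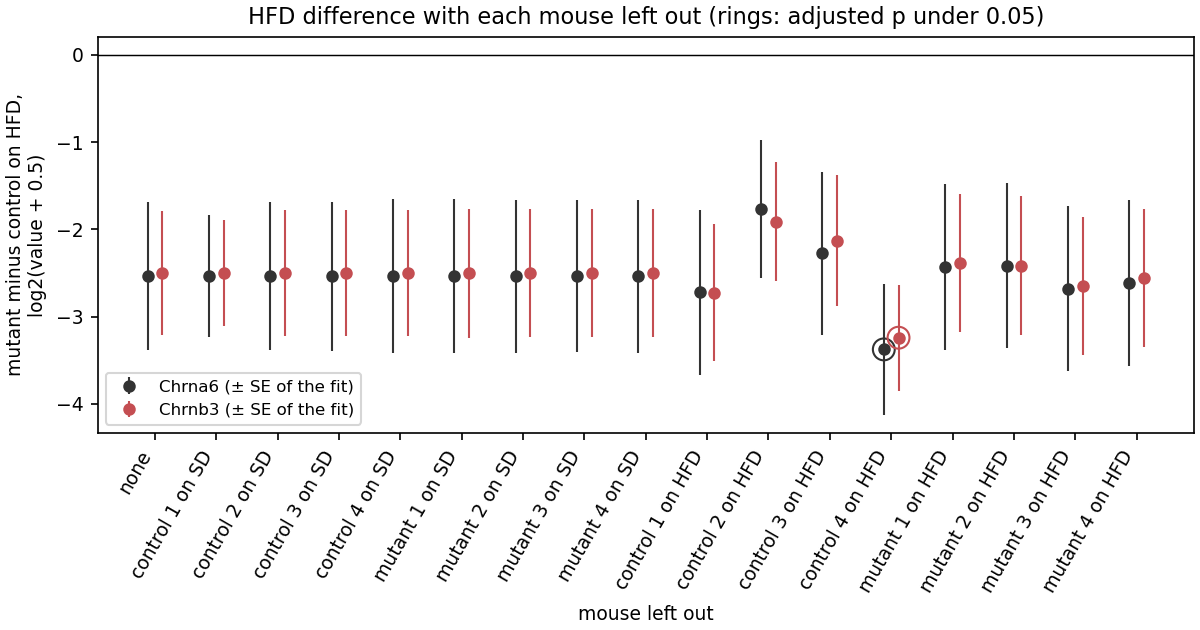
Difference between mutants and controls on HFD in log2(value + 0.5) for *Chrna6* and *Chrnb3*, with no mouse left out and with each of the 16 mice left out in turn. Points are limma estimates, bars are ± SE, and rings mark an adjusted p under 0.05, which appears without control 4 on HFD.

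The diet comparisons share the SD mice and are described only. HFD against SD gave log2 differences of -1.09 ± 0.85 for *Chrna6* and -0.98 ± 0.71 for *Chrnb3* in controls, and of -0.09 ± 0.85 and -0.33 ± 0.71 in mutants. The values in controls lean on control 4 on HFD, which at 1.29 and 1.55 lay below every other control for both genes. They were not estimated without it. In limma 0 of all genes tested, 0%, passed the threshold in controls, with 592 at an unadjusted p under 0.05, and 0, again 0%, in mutants, with 717. Whether the difference between genotypes itself differed between diets was not tested, since the SD mice chose the pair.

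The pair kept a similar proportion between high and low mice, but not among mutants on SD. The ratio of *Chrna6* to *Chrnb3* lay between 0.493 and 1.71 in the 16 mice, while *Chrna6* itself ranged from 0.881 to 49.8. Among mutants on SD alone the ratio ran from 0.493 to 1.70, where *Chrna6* ranged only from 0.898 to 2.01. It averaged 1.23 ± 0.463 (s.d., n = 4) in controls on SD, 1.10 ± 0.341 in controls on HFD, 0.941 ± 0.529 in mutants on SD and 1.07 ± 0.0734 in mutants on HFD. The ratio was above 1.5 in 3 of the 4 controls with the highest *Chrna6*, and also, at 1.70, in mutant 1 on SD, where both genes were low.

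**Figure D3:**
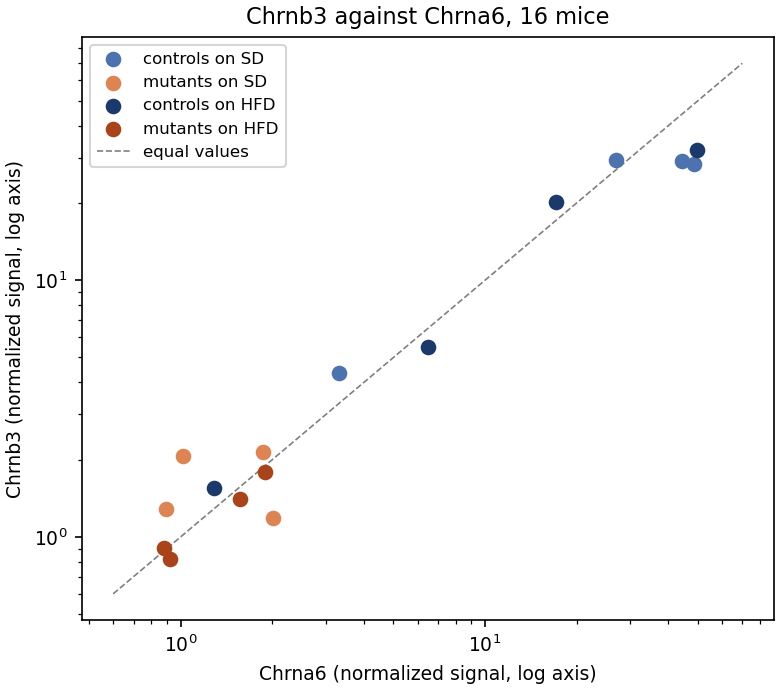
*Chrnb3* against *Chrna6* in the 16 mice (log axes, normalized signal), coloured by group, with a dashed line where the values are equal. Controls 1 on each diet lie between the mutants and the high controls, and control 4 on HFD lies among the mutants.

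The pair held ranks 1 and 2 among subunit genes in controls on SD, ranks 1 and 3 in controls on HFD, and lower ranks in mutants. On SD *Chrna6* and *Chrnb3* made up 35.1% and 26.0% of the summed level of the 13 subunit genes in controls, with *Chrnb2* at rank 3. In mutants on SD *Chrnb2*, the usual partner of α6, came first with 40.3%, followed by *Chrnb1*, *Chrna4* and *Chrna9*, and *Chrnb3* and *Chrna6* ranked 5 and 6. On HFD *Chrna6*, *Chrnb2* and *Chrnb3* held 28.0%, 27.5% and 22.3% in controls, and *Chrnb2* held 52.6% in mutants. These ranks are of group means. In control 1 on SD *Chrnb2*, at 16.4, and *Chrnb1*, at 8.94, lay above *Chrnb3* and *Chrna6*, at 4.36 and 3.30. Rank 1 of *Chrna6* on HFD came from control 2, at 49.8, since *Chrnb2* was above *Chrna6* in the 3 other controls on HFD, at 16.9, 19.6 and 18.0 against 6.48, 17.1 and 1.29.

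No other subunit gene passed the threshold. The fixed list held 16 nicotinic subunit genes, of which 13 had a value, the rest were not analysed here, and 6 were tested. Apart from the pair, which SD chose, 0 of 4 passed in any comparison. The share over all genes was 1.84% on SD and 0% in the others, so a count of 0 in so short a list says little, here and in the lists below. *Chrnb2* was 16.4, 17.9, 17.5 and 18.4 in controls 1 to 4 on SD and 7.56, 19.1, 17.5 and 19.9 in mutants, so the genotypes overlapped with 1 low mutant. On HFD it was 16.9 to 19.6 in controls and 17.6 to 19.5 in mutants, a log2 difference of 0.03 ± 0.21 and an adjusted p of 0.985. *Chrna4*, which forms the main brain receptor with β2, differed by 0.50 on SD and -0.05 on HFD, with adjusted p of 0.357 and 0.981. *Chrna9*, the α subunit of cochlear hair cells, differed by 0.25 and -0.75, with adjusted p of 0.783 and 0.595. *Chrnb1*, the β subunit of the muscle receptor, differed by 0.17 and 0.15, with adjusted p of 0.650 and 0.858. The median log2 difference of these 4 was 0.21 on SD and -0.01 on HFD, beside -0.01 and 0.02 over all genes tested. The 7 other subunit genes, *Chrna1*, *Chrna2*, *Chrna5*, *Chrna7*, *Chrna10*, *Chrnb4* and *Chrnd*, had means of 0.165 to 0.591 over all mice, below the filter. Of these, *Chrnd* went the other way from the pair on SD, at 0 to 0.0792 in controls and 0.139 to 0.929 in mutants. On HFD the genotypes overlapped, at 0.0219 to 0.258 and 0.0823 to 0.427. These are low values and were not tested.

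Genes that act with the receptor gave no call with all mice. Of 13 chaperones and modulators, which help receptors fold or change how they open, 10 had a value and 6 were tested. None of the 6 passed in any of the 4 comparisons, beside 1.84% of all genes on SD and 0% in the others. Their median log2 differences were 0.20 on SD and 0.30 on HFD, against -0.01 and 0.02 over all genes. The most abundant was *Ly6e*, a membrane-anchored protein of the Ly6 family. On SD it ranged from 267 to 317 in controls and from 299 to 564 in mutants. On HFD the ranges were 279 to 550 and 446 to 541, and control 4 held the 550. Its difference on HFD was 0.46, with an adjusted p of 0.442, and 0.68, with an adjusted p of 0.0241, without that library.

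The enzymes, transporters and other receptors of acetylcholine gave no call with all mice either, where 1.84% of all genes passed on SD and 0% on HFD. Of 7 genes of acetylcholine synthesis, transport and breakdown, 6 had a value, 2 were tested and 0 passed, with median differences of -0.70 on SD and -0.34 on HFD. Without control 4 on HFD 1 of the 2 passed on HFD, *Bche*, a cholinesterase, at -1.08 with an adjusted p of 0.0126, where 4.55% of all genes tested passed. *Ache*, the acetylcholinesterase that ends the signal, was most abundant, averaging 39.1 in controls and 30.6 in mutants on SD (adjusted p = 0.251). Of 5 muscarinic receptor genes, the G-protein-coupled receptors of the same transmitter, 4 had a value, 3 were tested and 0 passed, with median differences of 0.11 on SD and 0.24 on HFD. *Chrm1* led them at a mean of 1.43 over all mice. Of 10 dopamine neuron genes, fixed because α6 and β3 are known from those neurons, 7 had a value, 5 were tested and 0 passed beside the same shares, with median differences of 0.41 on SD and 0.34 on HFD. Their most abundant gene was *Nr4a2*, a transcription factor, at a mean of 69.7.

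The genes around the pair differed less between genotypes than it did, with 1 possible exception. Within 500 kb, 8 other genes had a value and 7 were tested, and 0 of the 7 passed in any comparison, beside 1.84% of all genes on SD and 0% in the others. Their log2 differences between mutants and controls lay between -0.11 and 0.36 on SD and between -0.04 and 0.48 on HFD, with smallest adjusted p of 0.175 and 0.491. *Eif4ebp1*, a repressor of translation 92.0 kb away, differed by 0.36 ± 0.17 on SD and 0.14 ± 0.17 on HFD. *Zfp703*, a transcriptional repressor gene 387.2 kb away, had the largest difference on HFD, 0.48 ± 0.31, and 0.87, with an adjusted p of 0.0378, without control 4 on HFD. *Zfp703*, *Plpbp*, *Adgra2*, *Brf2* and *Rab11fip1* overlap genes on the other strand, and the use of strand in counting is not stated.

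*Gm45861*, a predicted coding gene, lies 33.2 kb beyond the start of *Chrna6*, reads the other way, and was below the filter with a mean of 0.505. It was 0.144, 2.19, 1.14 and 1.46 in controls 1 to 4 on SD and 0.293, 0.0205, 0.0432 and 0.0763 in mutants 1 to 4. On HFD it was 0.0773, 1.64, 0.6001 and 0.167 in controls and 0.0312, 0.0326, 0.113 and 0.0550 in mutants. The 5 controls with the highest *Chrna6* were those with the highest *Gm45861*, and controls 1 on both diets and control 4 on HFD lay in the range of the mutants. The Pearson r with *Chrna6* over the 16 mice was 0.942, and 0.889 after the group means were removed, as a description of low values. The second r rests mostly on the spread among controls. The annotation overlaps *Gm45861* with 3 other gene models on its strand, so its reads may be shared with them.

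**Figure D4:**
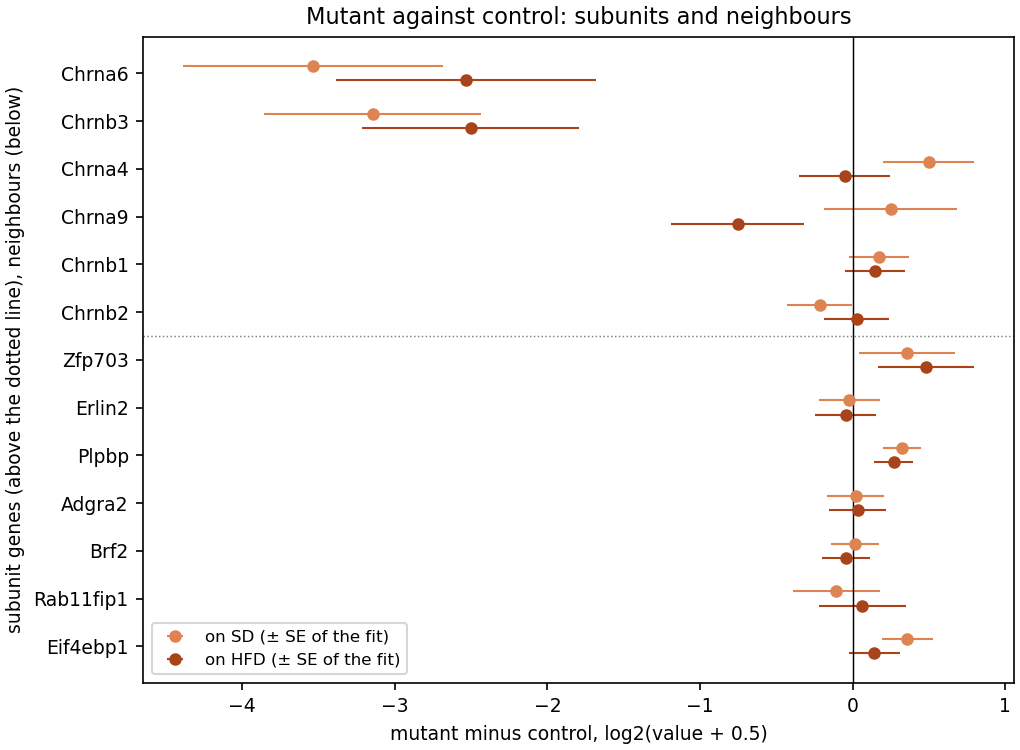
Log2 differences between mutants and controls on each diet (log2(value + 0.5) scale) for the 6 subunit genes tested and the 7 neighbours tested. Points are limma estimates and bars ± SE. *Chrna6* and *Chrnb3* lie between -3.54 and -2.50, and the other 11 genes lie between -0.75 and 0.50.

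The genes most like the pair were ranked over all genes tested by Pearson r of log2(value + 0.5) over the 16 mice, a description in which all points share genotype and libraries. After group means are subtracted, r rests mostly on the controls. On this scale the s.d. of the pair within groups was 1.30 to 2.04 in controls and 0.34 to 0.43 in mutants. For *Chrna6* the nearest was *Chrnb3*, at r = 0.982, and 0.954 after subtracting group means. Then came *Gpm6a*, a neuronal membrane glycoprotein, at 0.967 and 0.922, *Klhl1*, an actin-binding Kelch protein, at 0.966 and 0.906, *Kctd8*, an auxiliary subunit of GABA-B receptors, at 0.954 and 0.892, and *Caps2* at 0.948 and 0.868. For *Chrnb3* they were *Chrna6*, *Kctd8* at 0.973 and 0.960, *Gpm6a* at 0.966 and 0.933, *Caps2* at 0.956 and 0.876, and *Lrp2bp* at 0.953 and 0.919. *Klhl1* averaged 5.43 in controls and 0.174 in mutants on SD, and 2.90 and 0.224 on HFD. *Gpm6a* averaged 52.5 and 23.5 on SD, and 44.3 and 24.9 on HFD.

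The genes least like the pair were high where it was low. For *Chrna6* the lowest r were -0.974 for *Asic2*, an acid-sensing cation channel, and -0.972 for both *Arhgap24* and *Ank1*, an ankyrin of the membrane skeleton. After subtracting group means these were -0.938, -0.938 and -0.965. For *Chrnb3* they were -0.981 for *Prlh*, the gene for prolactin-releasing hormone, -0.975 for *Scnn1g*, a subunit of the epithelial sodium channel, and -0.973 for *Asic2*. *Prlh* was 17.1 in control 1 on SD and 0 in controls 2 to 4, and 7.71, 0, 0 and 556 in controls 1 to 4 on HFD. Mutants ranged from 236 to 418 on SD and from 180 to 380 on HFD. *Asic2* was 41.1, 2.53, 2.22 and 2.06 in controls 1 to 4 on SD, 15.4, 4.43, 4.49 and 93.9 in controls 1 to 4 on HFD, and 45.9 to 79.0 in mutants. Control 4 on HFD lay above every mutant in *Prlh* and *Asic2*, while its *Esr1* of 39.6 lay among the controls.

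**Figure D5:**
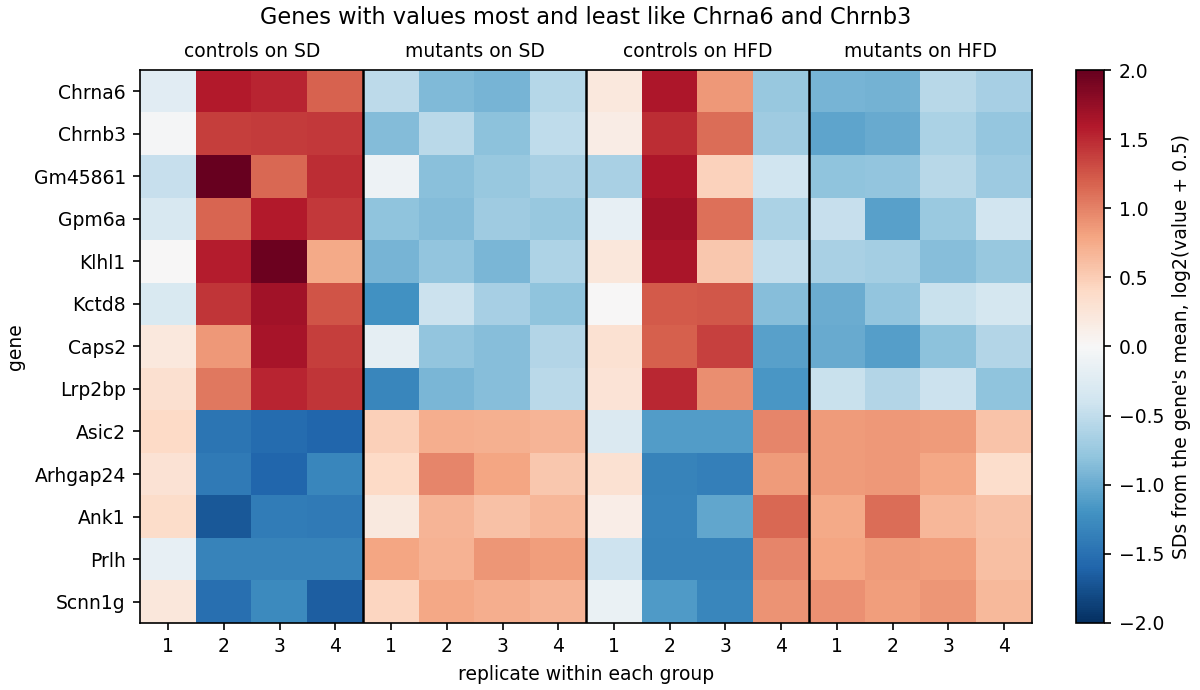
Values of *Chrna6*, *Chrnb3*, *Gm45861* and the genes with the highest and lowest Pearson r with the pair, in each of the 16 mice. Colours give s.d. from the gene's mean on the log2(value + 0.5) scale, red above and blue below. Controls 2 to 4 on SD and controls 2 and 3 on HFD stand apart from the mutants, and control 4 on HFD lies nearer to the mutants than to these controls.

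Markers of pituitary cell types were read beside the pair. The fixed markers were 59 genes in 15 lists, of which 53 had a value and 51 were tested, and *Prl* and *Gh*, the hormones of lactotrophs and somatotrophs, had the highest levels of all markers in every library. The most abundant of the other lists were *Pomc*, *Lhb*, *Hbb-bs*, *Tshb*, *Plvap*, *Pcsk2*, *Aldh1a2*, *Dcn*, *C1qa*, *Oxt*, *Col25a1*, *Scn10a* and *Dbh*. With limma 1 of 51 passed on SD, *Col25a1* at 1.00 and an adjusted p of 0.0321, beside the background of 1.84%, and 0 passed in the other 3 comparisons. Without control 4 on HFD, 9 of 51 passed on HFD, beside the background of 4.55%, 8 higher and 1 lower in mutants. The lower gene was *Lhb*, the luteinizing hormone subunit of gonadotrophs, at -1.49 with an adjusted p of 0.00499. The higher genes were spread over several lists. They were *Dio2* of thyrotrophs at 1.94 (adjusted p = 0.000314), *Col1a1* of connective tissue at 2.14 (adjusted p = 0.0231) and *Slc17a6* of brain neurons at 1.07 (adjusted p = 0.00828). The others were *Col25a1* at 1.01 (adjusted p = 0.00601), *C1qa*, 1 of 5 immune markers, at 1.24 (adjusted p = 0.0364) and 3 of the 5 endothelial markers. Markers of several cell types thus passed with the pair when this library was left out. *Col25a1* stood in the posterior lobe list but did not follow that list's defining genes. It was 15.3 in control 4 on HFD, where *Nkx2-1* and *Rax*, transcription factors of the posterior lobe, were listed at 0.

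Control 4 on HFD lay outside the range of the 7 other controls in 10 of the 15 lists, below it in 5 and above it in 5. Its summed level of the 5 endothelial markers, led by *Plvap*, was 183, against 94.3 to 123 in the other controls and 149 to 206 in the 8 mutants. For the 5 immune markers, led by *C1qa*, it was 88.4, against 26.1 to 54.7 and 52.3 to 134.5. The 3 melanotroph markers, led by *Pcsk2*, summed to 40.6, against 99.4 to 255.5 in the other controls and 12.7 to 209 in mutants. Mutant 1 on SD was also low in these genes, with a melanotroph sum of 12.7, *Rax* at 0 and *Nkx2-1* at 0.414, and its *Chrna6* of 2.01 was that of a mutant. *Avp* was listed at 0 in both libraries. In control 4 on HFD the corticotroph sum was 3468, against 11280 to 42090 in the other controls and 1671 to 22030 in mutants, the somatotroph sum 35710, against 48310 to 88790 and 30500 to 95190, and the brain neuron sum 35.8, against 43.3 to 60.7 and 22.7 to 85.5. Its lactotroph sum was 439200, against 262600 to 370600 and 294600 to 497100, the stem cell sum 62.9, against 43.05 to 53.8 and 49.5 to 91.1, and the connective tissue sum 64.6, against 31.8 to 56.45 and 21.9 to 79.7. For the corticotroph, melanotroph and brain neuron lists control 4 lay within the range of the mutants only through mutant 1 on SD, as the other 7 mutants had sums of 12310 to 22030, 100 to 209 and 61.1 to 85.5. The 4 posterior lobe markers summed to 15.5 in control 4 on HFD, against 12.9 to 18.0 in the other controls and 14.6 to 24.4 in mutants, but *Col25a1* made up 15.3 of it. The 3 other genes were far below every other control, with *Nkx2-1* and *Rax* at 0 and *Scn7a*, a sodium channel, at 0.173 against 2.54 to 4.05, so the sum counts this list as inside the range while its defining genes were nearly absent. The gonadotroph sum, most of it *Lhb*, was 1438, 1137, 1076 and 602 in controls 1 to 4 on HFD and 402 to 795 in mutants on HFD, while on SD controls, at 932 to 1515, and mutants, at 698 to 1298, overlapped. On HFD *Lhb* differed by -1.18, with an adjusted p of 0.211, and the median of the 4 gonadotroph markers was -0.08, so this is a value of *Lhb* and not of the list. The part of these cell types in the differences of *Chrna6* and *Chrnb3* was not tested.

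Controls 1 on SD and HFD, with the next lowest *Chrna6* of the controls, were nearer to the rest than control 4 on HFD in melanotroph and endothelial sums and in *Nkx2-1*. The melanotroph sum was 99.4 in control 1 on SD, the lowest of the controls after control 4 on HFD, and 145 in control 1 on HFD. The endothelial sum was 108 in control 1 on SD and 94.3 in control 1 on HFD, the lowest of all mice. *Nkx2-1* was 1.54 and 1.70, within the range of controls 2 to 4 on SD and 2 and 3 on HFD, 0.997 to 2.32. *Rax* was 1.60 in control 1 on SD, below these 5 controls at 1.75 to 3.43, and 1.89 in control 1 on HFD. In control 1 on SD *Oxt*, at 14.25, and the melanotroph markers *Pax7*, at 4.80, and *Oacyl*, at 42.3, also lay below these controls. Control 1 on HFD lay within their range in each. *Scn7a*, *Avp* and *Pomc* lay within it in both. *Col25a1*, which passed on SD, was 11.9 and 9.40 in controls 1, between the 5 controls with the highest *Chrna6*, at 6.06 to 7.77, and the mutants, at 13.9 to 18.2. The part of these cell types in the values of controls 1 was not tested. Genes least like the pair set both mice apart from these 5 controls. *Arhgap24* was 28.5 and 28.7 in controls 1 on SD and HFD, against 9.28 to 11.06 in these 5 controls and 29.65 to 42.6 in mutants. *Ank1* was 72.5 and 58.8, against 10.2 to 19.2 and 61.9 to 146.7. The libraries of controls 1 were also the most alike of all 16, at a Pearson r of 0.979 across the genes tested. The 5 sensory ganglion markers with a value, led by *Scn10a*, summed to 4.40 to 18.6 in the 7 other controls, 17.7 in control 4 on HFD and 5.59 to 31.1 in mutants. *Scn10a* itself was 3.02, 0.362, 0.623 and 0.664 in controls 1 to 4 on SD, 13.6, 7.71, 0.694 and 13.1 in controls 1 to 4 on HFD, and 3.02 to 14.2 in mutants. In control 2 on HFD *Scn10a* was 7.71 and *Chrna6* was 49.8, the highest of all mice. The part of ganglion tissue was not tested.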

How the data were processed

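Pituitary RNA of 16 female mice was analysed, 4 per genotype and diet, with groups from the labels and no mouse left out. The authors quantified reads with kallisto against the mouse transcriptome (mm10), compared genes with sleuth and deposited a normalized signal per gene, which is not a count. Versions and annotation release are not given in the sources used here. Sums per library ran from 908897 to 1335782. The design named a count test should the values be counts, and its branch for normalized values was used.

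A symbol was found for 17351 genes, with positions from GENCODE M21 (GRCm38). Genes with a mean of at least 1, 14345 in all, entered a limma 3.58.1 fit (R 4.3.3) of log2(value + 0.5), which used every mouse, a mean for each group and a variance trend. P values were adjusted by Benjamini-Hochberg within each comparison, at 0.05, and the code was tried on simulated data. Tables used Python 3.11.15, numpy 2.4.6 and pandas 2.3.3, exact tests scipy 1.17.1, shared sequence BLAST 2.17.0, alignment biopython 1.88, figures matplotlib 3.10.9.

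The members and lists were chosen with earlier results of these data known. Genes looked at by mouse were the pair, *Esr1*, every subunit with a value, list genes past the threshold or most abundant in their list, neighbours within 500 kb, and the 5 most and 3 least like genes by Pearson r. *Hapln1*, *Gm14472*, *Gm13502*, *Nkx2-1*, *Rax*, *Pax7*, *Oacyl*, *Avp*, *Scn7a*, *Bche*, *Dio2*, *Col1a1* and *Slc17a6* were named outside this rule. Alternatives were pseudocounts, filters, scalings, eBayes without trend, the 8 mice compared, animal-number range as a covariate and each mouse left out. The range parts lower from upper animal numbers, and the labels do not say what it marks. On SD most controls were lower and most mutants upper. On HFD all controls were upper and mutants were split, so the range is partly confounded with genotype on both diets. Chosen after seeing values were the alternative without 2 libraries, the read estimate, the r of *Gm45861* the split of marker ranges at control 4 on HFD and the lists without that library. Promoters of *Chrna6* and *Chrnb3* were not used here.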

Additional observations from a re-analysis of the deposited data

Results flagged for a closer look

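For 51 genes, each group of 4 was scanned for a value standing apart, by its gap to the next value over the range of the group, above Dixon's critical value. Of 204 groups, 22 held such a value. Chance gives about 1 in 20 of independent groups, but these genes share mice and were partly chosen on these values, so the count is not compared with it, and 7 of the 22 lie in control 1 on SD and 7 in control 4 on HFD. The genes scanned were widened to all of these after a first look at fewer. No cause was tested.

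In control 1 on SD, *Chrnb3* was lowest at 4.36, with the others from 28.4 to 29.4. In the same mouse *Asic2* was highest at 41.1, *Arhgap24* at 28.5, *Ank1* at 72.5, *Scnn1g* at 14.04, *Prlh* at 17.1 and *Scn10a* at 3.02.

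In control 4 on HFD, *Chrnb1* was highest at 8.77, with the others from 5.83 to 6.12, and so were *Chrnd* at 0.258, *Ly6e* at 550.4, *Aldh1a2* at 35.6, *Zfp703* at 39.6, *Asic2* at 93.9 and *Prlh* at 556.

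In mutant 1 on SD, *Esr1* was lowest at 10.0, with the others from 20.5 to 22.2, and *Plvap* was highest at 143. *Eif4ebp1* was highest at 4.70 in mutant 2 on SD and *C1qa* at 58.5 in mutant 4 on SD. On HFD *Dbh* was highest at 11.1 in control 1, *Scn10a* at 14.2 in mutant 2 and *Chrm1* at 2.39 in mutant 3, and *Asic2* was lowest at 52.7 in mutant 4.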

How the results depend on the processing

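The differences of *Chrna6* and *Chrnb3* kept their sign under all 27 alternatives in each comparison of genotypes. On HFD, where they were tested, they kept their side of the threshold under the 10 alternatives that change the fit and leave out no single mouse, with adjusted p in limma from 0.280 to 0.470 and from 0.226 to 0.437. Leaving out 1 of the 8 SD mice gave 0.214 to 0.377 and 0.193 to 0.317. Leaving out each mouse in turn gave -3.38 to -1.77 for *Chrna6* and -3.24 to -1.91 for *Chrnb3*, and only without control 4 on HFD did they pass. They also passed, at -3.38 and -3.24 with adjusted p of 0.0187 and 0.00672, without that library and mutant 1 on SD, an alternative chosen after seeing the data.

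The count of 264 genes on SD became 151 with a filter at a mean of 5, where fewer genes were tested, 961 without those 2 libraries, and 33 to 826 with each mouse left out. The count of 0 on HFD became 1 with a filter at a mean of 0.1, with no filter and without trend, 1064 without the 2 libraries, and 0 to 653 with each mouse left out. HFD against SD gave 1 gene in controls without the 2 libraries, 2 in mutants with only the 8 mice compared, and 0 to 6 and 0 to 1 with each mouse left out. The causes were not tested. No paired analysis was possible because the labels carry no replicate numbers shared between groups. Total reads per library were not used here, and 4 mice per group limit every test.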
